A study of Mus musculus with 18 samples.

Results

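Gap43, Basp1, Marcks and Marcksl1, which encode membrane-bound proteins of the growth cone, and the 4 stathmin genes Stmn1 to Stmn4 were followed in whole mouse retina after optic nerve crush. Their 10 probes, of 39429 non-control probes on the array, were found by the RefSeq accession of each probe, and the 8 genes are among 20144 with a symbol. Stmn1 and Stmn4 have 2 probes each and the other 6 genes 1 each. Every probe lay well above background in both dyes on all 18 arrays, so all 8 genes were among the 25360 tested. In RefSeq's annotation the genes lie on chromosomes 16 (Gap43), 15 (Basp1), 10 (Marcks), 4 (Marcksl1 and Stmn1), 3 (Stmn2), 2 (Stmn3) and 14 (Stmn4).

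The optic nerve, which carries the ganglion cell axons out of the eye, had been crushed 3 days earlier, and uninjured eyes were the controls. All mice carried floxed alleles of Map3k12, the gene of the kinase DLK, and all were given tamoxifen at 10 to 12 weeks of age. In Cre-positive mice the CAG promoter, active in many tissues, drove Cre-ERT, a recombinase that tamoxifen switches on, so deletion is not limited to ganglion cells, and some DLK protein remains per the labels. Cre-negative littermates kept their floxed Map3k12 uncut. Each array compared Cy5-labelled retinal RNA with a Cy3-labelled universal mouse reference, and a level below is log2 of Cy5 over Cy3. There were 5 Cre-positive crushed, 3 Cre-negative crushed, 5 Cre-positive uncrushed and 4 Cre-negative uncrushed arrays. One more Cre-negative array, on whose injury state the labels disagree, was left out of every comparison. The labels do not say which retinas come from separate animals, so each p measures only the spread between these samples.

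Growth cones are the motile tips of growing axons. GAP43, BASP1, MARCKS and MARCKSL1 sit on the inner face of the plasma membrane, are substrates of protein kinase C, and bind acidic membrane lipids and calmodulin in ways that bear on the actin cortex. Stathmins bind tubulin dimers and promote the disassembly of microtubules until they are phosphorylated, among others by JNK, the kinase downstream of DLK. Stathmin 1 is cytosolic and widely expressed, whereas stathmins 2, 3 and 4 are neuronal and carry a palmitoylated membrane anchor. Gap43 and Stmn2 are known for their rise in injured neurons that regrow axons.

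The arrays had 68.05% to 76.2% of probes with Cy5 well above background, no spot saturated in any member probe, and r across genes of 0.982 to 0.996 between arrays of a group. The genotype labels were borne out by 1 of 3 Esr1 probes, which reads the estrogen receptor part of Cre-ERT, at 1.80 to 3.31 in Cre-positive against -0.84 to -0.50 in Cre-negative retinas. Map3k12 read 1.77 to 2.34 in Cre-positive and 2.21 to 2.61 in Cre-negative retinas, and whether its probe lies in the deleted part is not given. All 14 photoreceptor markers were well above background on every array, which bears out retina as the tissue. The mean level of 13 ganglion cell markers was 3.02 to 3.15 in crushed against 3.25 to 3.37 in uncrushed Cre-positive retinas, and 2.39 to 2.49 in crushed against 3.14 to 3.25 in uncrushed Cre-negative retinas. Fewer cells of a type and less RNA per cell cannot be told apart in whole retina. The mean of 11 microglia and macrophage markers was 0.37 to 0.97 in crushed against -0.03 to 0.16 in uncrushed Cre-positive retinas (9 of 11 called higher), and 0.35 to 0.43 in crushed against -0.05 to -0.02 in uncrushed Cre-negative retinas (4 of 11 called higher). One Cre-positive crushed array (replicate 5) had a lens marker mean of 1.84, and one Cre-positive uncrushed array (replicate 4) a cornea, iris and ciliary body marker mean of 2.26, each the highest of its group. The part of these differences in the member values was not tested. Values without both arrays are given for the called log ratios of Stmn4 that use them, and for listed genes whose calls were lost without them.

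Stmn4 was the 1 gene of the 8 called for crush, and it rose in both genotypes. Its levels were 5.01, 5.07, 5.24, 5.14 and 5.08 in Cre-positive crushed retinas, against 4.71, 4.55, 4.68, 4.70 and 4.53 in Cre-positive uncrushed retinas. They were 5.24, 5.39 and 5.33 in Cre-negative crushed retinas, against 4.74, 4.68, 4.59 and 4.74 in Cre-negative uncrushed retinas. Every crushed retina lay above every uncrushed one, in either genotype. The share of all genes with such a gap was not counted, here or below. A gap between groups this small is therefore not read as a difference by itself. The log2 rise was 0.48 in Cre-positive retinas (SE 0.06, 95% interval 0.36 to 0.59, 1.39-fold, limma adjusted p = 3e-04). In Cre-negative retinas it was 0.63 (SE 0.07, 95% interval 0.49 to 0.77, 1.55-fold, limma adjusted p = 1.2e-05).

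The second Stmn4 probe gave nearly the same picture with less spread. It averaged 5.29 ± 0.04 (SD, n = 5) in Cre-positive crushed, 5.50 ± 0.02 (SD, n = 3) in Cre-negative crushed, 4.82 ± 0.07 (SD, n = 5) in Cre-positive uncrushed and 4.86 ± 0.03 (SD, n = 4) in Cre-negative uncrushed retinas. Its log2 rise was 0.47 in Cre-positive retinas (SE 0.04, limma adjusted p = 3.1e-05 over 30484 probes) and 0.64 in Cre-negative retinas (SE 0.05, limma adjusted p = 3.4e-07). Both probes name the same transcript accession, so they are repeat readings of 1 gene.

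The 1 of 8 genes called in Cre-positive retinas stands beside a background of 194 of 25360 genes (0.765%), of which 172 rose (0.678%) and 22 fell (0.0868%). In Cre-negative retinas 545 genes were called (2.15%), 341 higher (1.34%) and 204 lower (0.804%). Among the genes called higher, Stmn4 ranked 101 of 172 in Cre-positive and 113 of 341 in Cre-negative retinas by the size of its log2 change. That rank is of the ratio, and the Cy3 signal by which Stmn4 is divided was also higher after crush, as given below. The median log2 change of the 8 genes was -0.06 in Cre-positive and 0.07 in Cre-negative retinas, against 0.00 over all genes in either case.

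**Figure D1:**
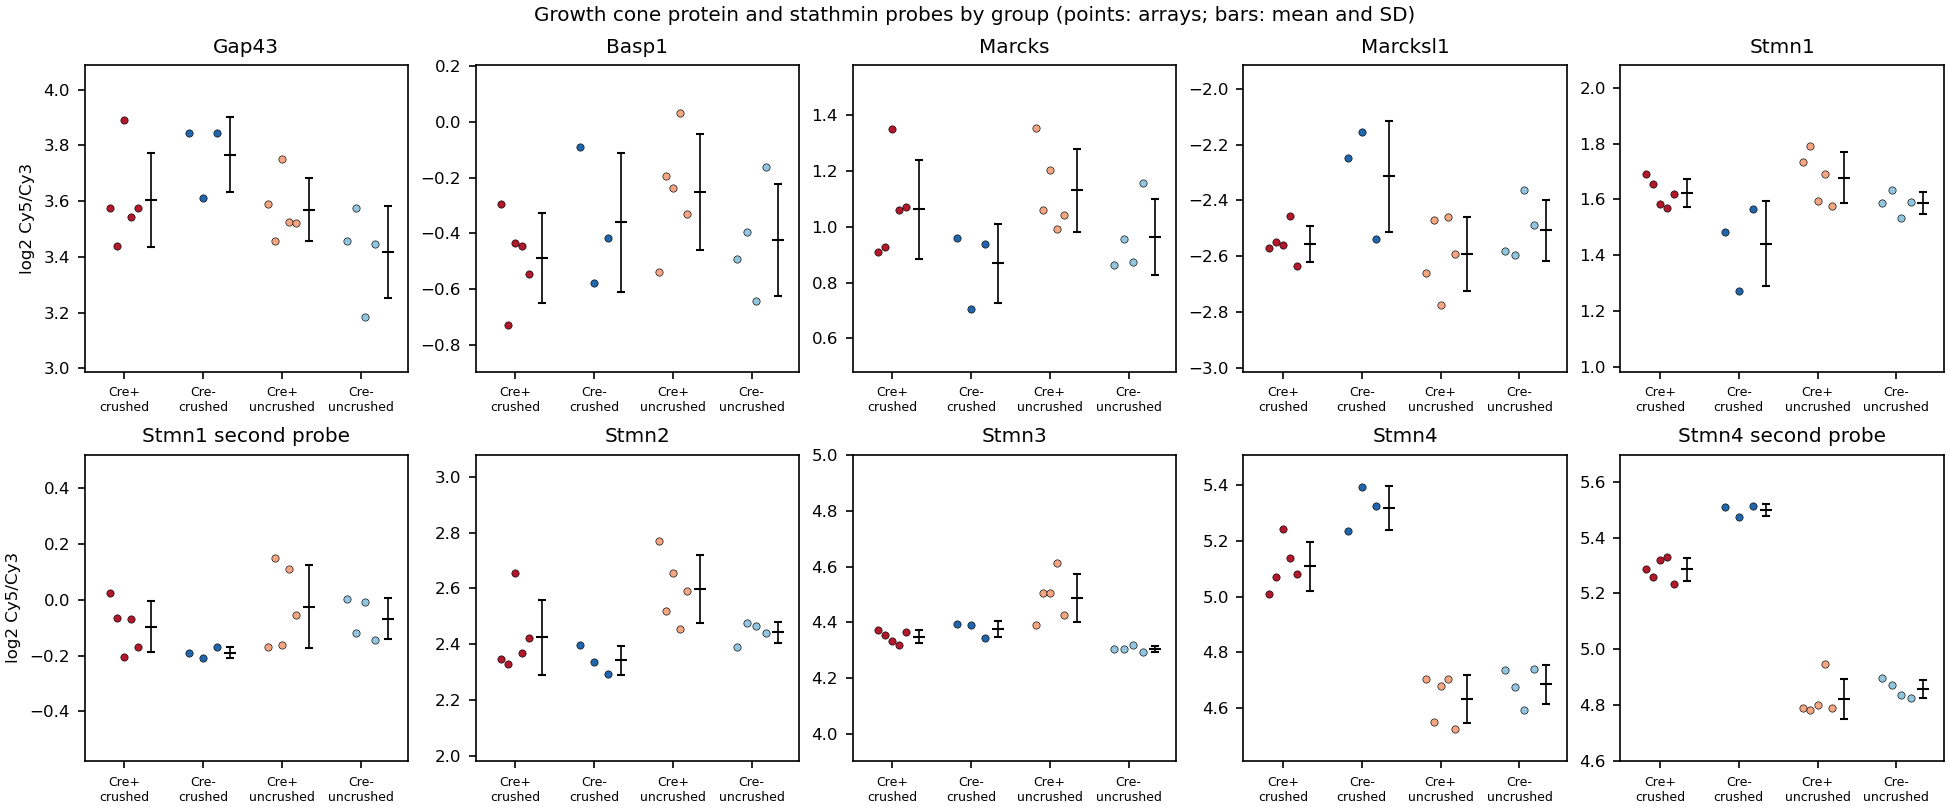
Log2 Cy5/Cy3 of all 10 probes on the 17 assigned arrays, 1 panel per probe; points are arrays, bars the group mean and SD, and every vertical axis spans the same log2 distance. The 8 crushed retinas stand above the 9 uncrushed ones at both Stmn4 probes, while the groups overlap or lie close at the other 8 probes.

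Whether the rise of Stmn4 depended on DLK was asked from the genotypes. The estimated response in Cre-positive minus that in Cre-negative retinas was -0.16 on the log2 scale at the first probe (SE 0.09, 95% interval -0.34 to 0.03, limma adjusted p = 0.67), which did not pass the test. The second probe gave a difference of -0.18 (95% interval -0.32 to -0.04, limma adjusted p = 0.47), also short of the threshold. The first probe's difference changed sign in 1 of 35 alternatives, to 0.12 with median centring in place of loess (limma adjusted p = 0.47). It was -0.20 to -0.12 over the 17 fits that left out 1 array. No alternative called it (limma adjusted p 0.47 to 0.90), and its direction depends on the normalization. Background for this contrast was 106 of 25360 genes called (0.418%), 34 higher (0.134%) and 72 lower (0.284%).

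Among crushed retinas alone, Cre-positive ones averaged 5.11 ± 0.09 (SD, n = 5) and Cre-negative ones 5.32 ± 0.08 (SD, n = 3) at the first Stmn4 probe, and the highest Cre-positive value, 5.243, passed the lowest Cre-negative one, 5.237. The difference of -0.21 (SE 0.06, 95% interval -0.35 to -0.07) had a limma adjusted p of 0.14. At the second probe all 5 Cre-positive values, 5.23 to 5.33, lay below the 3 Cre-negative values, 5.48 to 5.51, and the difference of -0.21 (SE 0.05) passed narrowly (limma adjusted p = 0.042 over 30484 probes). That call ended in 25 of 34 alternatives, among them 15 of the 17 in which a single array was left out (adjusted p 0.05 to 0.15, value -0.23 to -0.20), and at -0.20 without both arrays high in lens or corneal markers (adjusted p = 0.053). No member gene was called for Cre among crushed retinas at its first probe, where 289 of 25360 genes were (1.14%), 151 higher (0.595%) and 138 lower (0.544%). Within the 2 slides that held crushed retinas of both genotypes, the first probe was lower in Cre-positive retinas by 0.24 and 0.23.

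Among uncrushed retinas, Cre-positive ones averaged 4.63 ± 0.09 (SD, n = 5) and Cre-negative ones 4.69 ± 0.07 (SD, n = 4) at that probe, a difference of -0.05 (95% interval -0.18 to 0.07, limma adjusted p = 0.94). The order of the 4 groups was therefore Cre-negative crushed, Cre-positive crushed, Cre-negative uncrushed and Cre-positive uncrushed, and both pairs of neighbours of the same injury state overlapped at this probe. Across all 25360 genes limma called 0 for Cre in uncrushed retinas (0%), with 1411 at an unadjusted p under 0.05, and 2 were called from Cy5 alone. With all 30484 probes tested 3 were called. Map3k12, the floxed gene, differed by -0.43 without a call (limma adjusted p = 0.88), so 0 calls do not show that the genotypes were alike.

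Each slide held crushed and uncrushed retinas of the same genotype, so the rise of Stmn4 could be read slide by slide. It was 0.38 to 0.55 over 4 slides with both Cre-positive states, and 0.50 to 0.80 over 3 slides with both Cre-negative states. Crushed retinas lay at the even positions of a slide and uncrushed ones at the odd positions, so position and injury cannot be told apart. Slide 1 held only Cre-positive arrays, slide 5 only Cre-negative ones, and slide 4 no Cre-negative crushed one, so genotype is partly tied to slide. Without the 2 arrays high in lens or corneal markers the rise was 0.50 in Cre-positive retinas (limma adjusted p = 0.00094). The Stmn4 calls held under all 36 alternatives run, with log2 changes of 0.32 to 0.97 in Cre-positive and 0.45 to 1.09 in Cre-negative retinas.

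**Figure D2:**
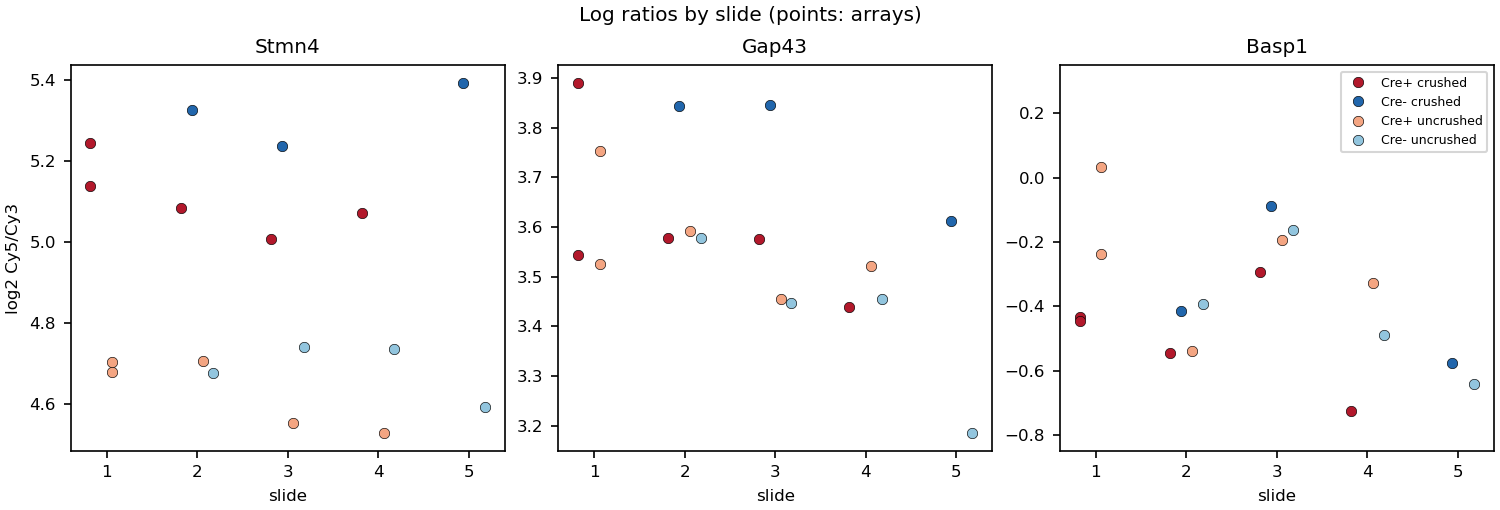
Log2 Cy5/Cy3 of Stmn4, Gap43 and Basp1 by slide (1 to 5), with points for arrays coloured by group. Stmn4 shows the crushed retinas above the uncrushed ones on every slide, and Gap43 shows 3 Cre-negative crushed retinas above the Cre-negative uncrushed retina of their slide. Basp1 lies at different levels on different slides, without a call for slide.

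The reference dye also differed between groups at Stmn4. The labels give 1 reference RNA for all arrays, so its Cy3 signal was looked at alone, a test added after seeing the data. Processed Cy3 signal at the first probe was 1402 ± 84.0 intensity units (SD, n = 5) in Cre-positive crushed and 1699 ± 85.2 (SD, n = 3) in Cre-negative crushed retinas, against 844 ± 86.5 (SD, n = 5) in Cre-positive uncrushed and 1114 ± 132 (SD, n = 4) in Cre-negative uncrushed retinas. It stood higher on every crushed array than on every uncrushed one.

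After quantile normalization of that dye alone, the Cy3 log2 rise was 0.63 in Cre-positive (SE 0.06, limma adjusted p = 0.00064) and 0.66 in Cre-negative retinas (SE 0.07, limma adjusted p = 0.00044). Few genes did this, 1 of 25360 in Cre-positive retinas (0.00394%), which was Stmn4, and 18 in Cre-negative retinas (0.071%). Of those 18, 5 were higher: the peptidase gene Ecel1 (3.06), the BH3-only gene Hrk (2.64), Stmn4, the neuropeptide precursor gene Vgf (0.54) and the small GTPase gene Rab15 (0.48). These were named because Cy3 moved, after their values were seen.

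The processed Cy5 signal of Stmn4 was 54050 ± 2863 in Cre-positive crushed and 72970 ± 4529 in Cre-negative crushed retinas, against 25970 ± 834 in Cre-positive uncrushed and 34920 ± 3367 in Cre-negative uncrushed retinas. Read from Cy5 alone, the rise was 0.97 on the log2 scale in Cre-positive (SE 0.06, 1.95-fold, limma adjusted p = 1.6e-06) and 1.09 in Cre-negative retinas (SE 0.08, 2.13-fold, limma adjusted p = 3.8e-07). The Cy5 rise was larger than the rise of the ratio in both genotypes, and the ratio divides by a Cy3 signal that was itself higher after crush. From Cy5 alone, Stmn4 was also lower in Cre-positive than in Cre-negative crushed retinas, by a log2 difference of -0.46 (SE 0.07, limma adjusted p = 0.0023). The difference of the crush responses in Cy5 was -0.13 (95% interval -0.33 to 0.08, limma adjusted p = 0.86), and among uncrushed retinas Cy5 already differed by -0.34 (limma adjusted p = 0.58). What moved the Cy3 signal was not tested.

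The same look at the other members gave a Cy3 log2 change in Cre-positive and Cre-negative retinas of 0.52 and 0.48 for Gap43 and of -0.10 and -0.44 for Stmn3, none past the test (limma adjusted p = 0.16 or more). For Basp1, Marcks, Marcksl1, Stmn1 and Stmn2 the Cy3 change was between -0.06 and 0.05 in both genotypes. Cy3 signal as a share of Cy5 at the same spot was 2.22% to 3.61% for Stmn4, 3.59% to 4.60% for Stmn3 and 4.57% to 6.54% for Gap43 over the 17 arrays. At the first probes of the other 5 genes it was 14.9% or more.

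**Figure D3:**
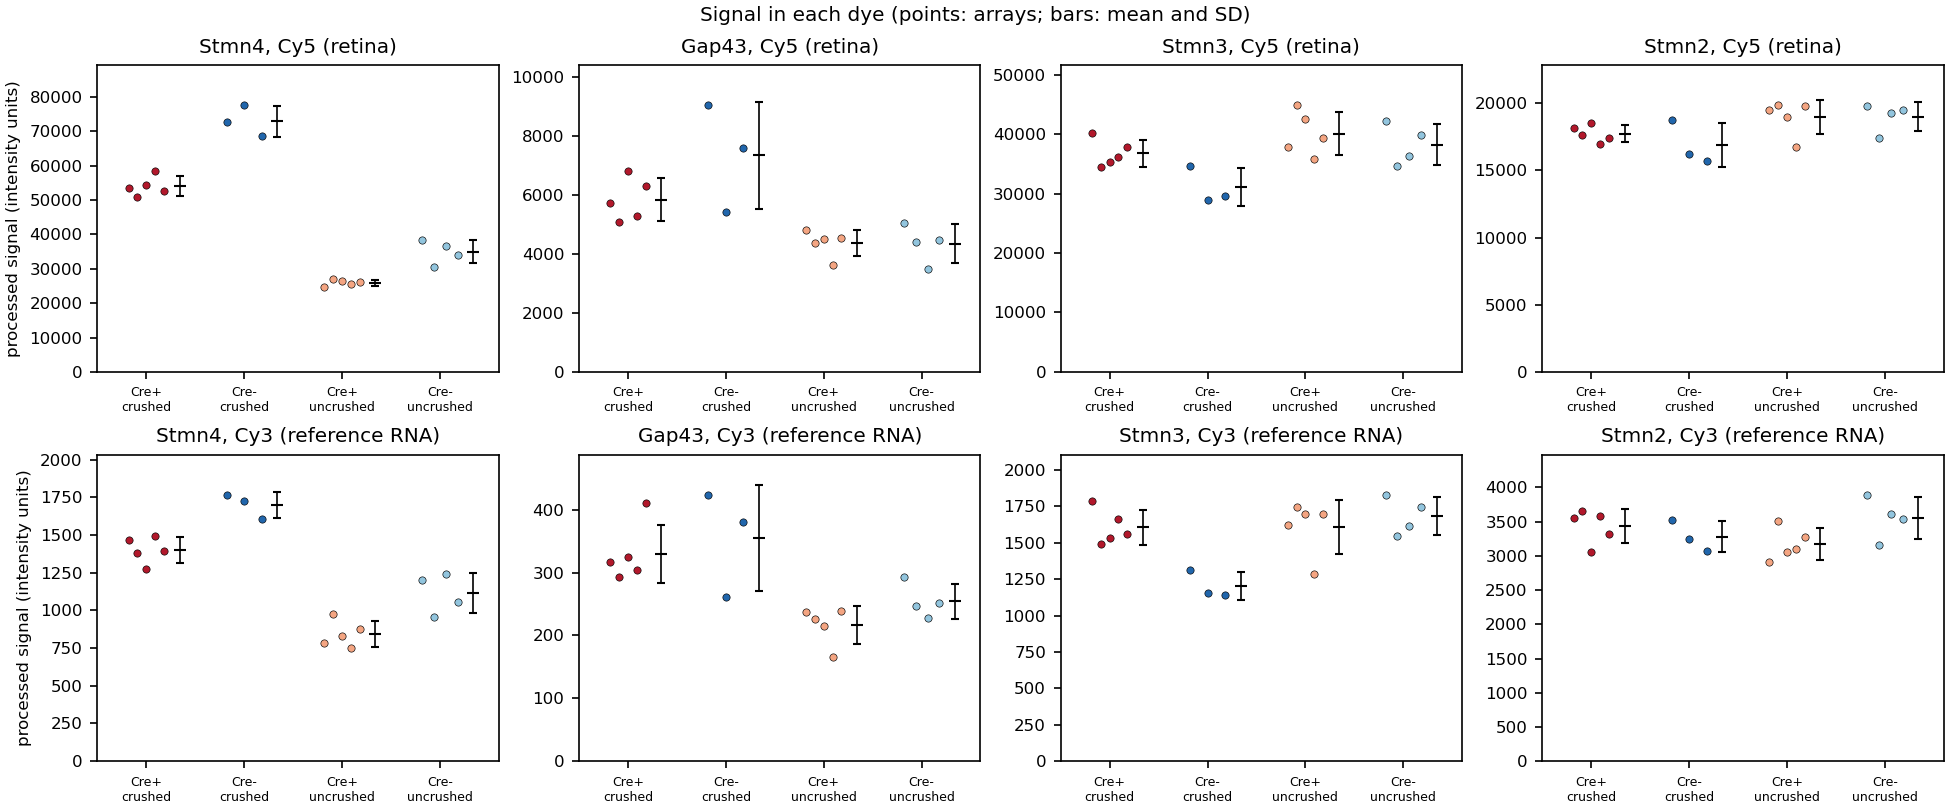
Processed signal in intensity units of the first probes of Stmn4, Gap43, Stmn3 and Stmn2, with Cy5 (retina) above and Cy3 (reference RNA) below. Points are arrays and bars the group mean and SD. Both dyes are higher at Stmn4 in every crushed retina than in every uncrushed one, whereas Cy3 at Stmn2 stays within 2917 to 3897 units over all arrays.

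Gap43 did not pass the test in either genotype. Its levels were 3.85, 3.61 and 3.84 in Cre-negative crushed retinas, against 3.46, 3.58, 3.19 and 3.45 in Cre-negative uncrushed retinas. All 3 crushed values lay above all 4 uncrushed ones, a gap that groups this small can show by chance. The log2 difference was 0.35 (SE 0.11, 95% interval 0.13 to 0.57, 1.28-fold, limma adjusted p = 0.11), and within the 3 slides that held both states it was 0.27 to 0.43. In Cre-positive retinas Gap43 read 3.58, 3.44, 3.89, 3.54 and 3.58 after crush, against 3.59, 3.46, 3.75, 3.53 and 3.52 without. These groups overlapped throughout, at a difference of 0.04 (95% interval -0.15 to 0.22, limma adjusted p = 0.92). The highest value in each Cre-positive group came from slide 1.

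The difference between the genotypes in the Gap43 response was -0.32 (95% interval -0.60 to -0.03, limma adjusted p = 0.56) and did not pass either, and with median centring it was -0.10 (limma adjusted p = 0.66). The Cre-positive change was 0.32 from Cy5 alone (limma adjusted p = 0.56) and -0.19 from processed signals (limma adjusted p = 0.41), so it has no settled direction. Gap43 crossed the threshold in Cre-negative retinas in 5 of 36 alternatives, at a limma adjusted p of 0.045 without background subtraction, 0.026 from Cy5 alone (value 0.78), 0.043 with slide as a block, 0.011 with array weights and 0.049 without Cre-positive crushed replicate 3. Over the 17 fits that left out 1 array its value ranged from 0.27 to 0.43. Cy3 at this probe was dim, at 165 to 424 units, and Cy5 averaged 5838 ± 722 (SD, n = 5) in Cre-positive crushed and 7348 ± 1814 (SD, n = 3) in Cre-negative crushed retinas, against 4369 ± 455 (SD, n = 5) and 4347 ± 650 (SD, n = 4) in Cre-positive and Cre-negative uncrushed retinas.

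Basp1, a relative of GAP43 in structure and membrane binding, had no call. It averaged -0.49 ± 0.16 (SD, n = 5) in Cre-positive crushed, -0.36 ± 0.25 (SD, n = 3) in Cre-negative crushed, -0.25 ± 0.21 (SD, n = 5) in Cre-positive uncrushed and -0.42 ± 0.20 (SD, n = 4) in Cre-negative uncrushed retinas. The groups overlapped. The crush difference was -0.24 in Cre-positive retinas (95% interval -0.48 to 0.00, limma adjusted p = 0.53) and 0.06 in Cre-negative retinas (95% interval -0.23 to 0.35, limma adjusted p = 0.90).

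The mean of Basp1 was -0.27, -0.47, -0.18, -0.52 and -0.61 on slides 1 to 5, which differ in the groups they hold. The slide term, fitted beside the group means, was not called (limma adjusted p = 0.11), where 62 of 25360 genes were called for slide (0.244%). Within slides the crush difference was -0.40 to -0.01 over 4 slides with both Cre-positive states and -0.02 to 0.07 over 3 slides with both Cre-negative states. Each slide was scanned once, so slide and scan cannot be told apart.

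Marcks, the widely expressed protein kinase C substrate, read 1.06 ± 0.18 (SD, n = 5) in Cre-positive crushed, 0.87 ± 0.14 (SD, n = 3) in Cre-negative crushed, 1.13 ± 0.15 (SD, n = 5) in Cre-positive uncrushed and 0.96 ± 0.14 (SD, n = 4) in Cre-negative uncrushed retinas. The crush difference was -0.07 in Cre-positive (95% interval -0.26 to 0.12) and -0.10 in Cre-negative retinas (95% interval -0.33 to 0.14), with limma adjusted p of 0.86 and 0.78. Crushed and uncrushed retinas of the same genotype overlapped.

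Marcksl1, the gene of a smaller relative of MARCKS, averaged -2.56 ± 0.06 (SD, n = 5) in Cre-positive crushed, -2.31 ± 0.20 (SD, n = 3) in Cre-negative crushed, -2.59 ± 0.13 (SD, n = 5) in Cre-positive uncrushed and -2.51 ± 0.11 (SD, n = 4) in Cre-negative uncrushed retinas. Its crush difference was 0.04 in Cre-positive (95% interval -0.12 to 0.20, limma adjusted p = 0.91) and 0.19 in Cre-negative retinas (95% interval 0.00 to 0.39, limma adjusted p = 0.37). Crushed Cre-positive and Cre-negative retinas differed by -0.24 (limma adjusted p = 0.22). All groups overlapped, and 1 of the 3 Cre-negative crushed values, -2.54, lay among the uncrushed ones.

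Stmn1, the cytosolic stathmin, had no call at either probe. Its first probe averaged 1.62 ± 0.05 (SD, n = 5) in Cre-positive crushed, 1.44 ± 0.15 (SD, n = 3) in Cre-negative crushed, 1.68 ± 0.09 (SD, n = 5) in Cre-positive uncrushed and 1.59 ± 0.04 (SD, n = 4) in Cre-negative uncrushed retinas. The crush difference was -0.05 in Cre-positive (limma adjusted p = 0.81) and -0.15 in Cre-negative retinas (limma adjusted p = 0.37), and its second probe gave -0.07 and -0.12. Crushed retinas differed by genotype by 0.18 at the first probe (limma adjusted p = 0.22), every Cre-positive value lying above every Cre-negative one. At the second probe that difference was 0.09 with overlapping groups (limma adjusted p = 0.63).

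Stmn2, the stathmin also called SCG10, showed no call either. It averaged 2.42 ± 0.13 (SD, n = 5) in Cre-positive crushed, 2.34 ± 0.05 (SD, n = 3) in Cre-negative crushed, 2.60 ± 0.12 (SD, n = 5) in Cre-positive uncrushed and 2.44 ± 0.04 (SD, n = 4) in Cre-negative uncrushed retinas. The crush difference was -0.17 in Cre-positive (95% interval -0.31 to -0.04, limma adjusted p = 0.39) and -0.10 in Cre-negative retinas (95% interval -0.27 to 0.07, limma adjusted p = 0.65). Both estimates are below 0, while both Stmn4 estimates are above it, and the upper ends of the Stmn2 intervals lie below the lower ends for Stmn4.

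Stmn3, also called SCLIP, was the most even of the members, with an SD over the 17 arrays of 0.09. Its levels were 4.37, 4.36, 4.33, 4.32 and 4.37 in Cre-positive crushed retinas, against 4.39, 4.50, 4.51, 4.61 and 4.43 in Cre-positive uncrushed retinas. They were 4.39, 4.39 and 4.34 in Cre-negative crushed retinas, against 4.30, 4.31, 4.32 and 4.29 in Cre-negative uncrushed retinas. The crushed values lay below the uncrushed ones in Cre-positive mice and above them in Cre-negative mice, without overlap in either. Groups this small can show such gaps by chance.

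None of these Stmn3 differences passed the test. The crush difference was -0.14 in Cre-positive (SE 0.04, limma adjusted p = 0.21) and 0.07 in Cre-negative retinas (SE 0.05, limma adjusted p = 0.61). The difference between the responses was -0.21 (95% interval -0.35 to -0.07, limma adjusted p = 0.34). Cre-positive uncrushed retinas exceeded Cre-negative uncrushed ones by 0.18 with no overlap (limma adjusted p = 0.88). From Cy5 alone the Cre-negative difference took the other sign, -0.26 (limma adjusted p = 0.078), and with median centring it was -0.07 (limma adjusted p = 0.69), so no direction is given for Stmn3.

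**Figure D4:**
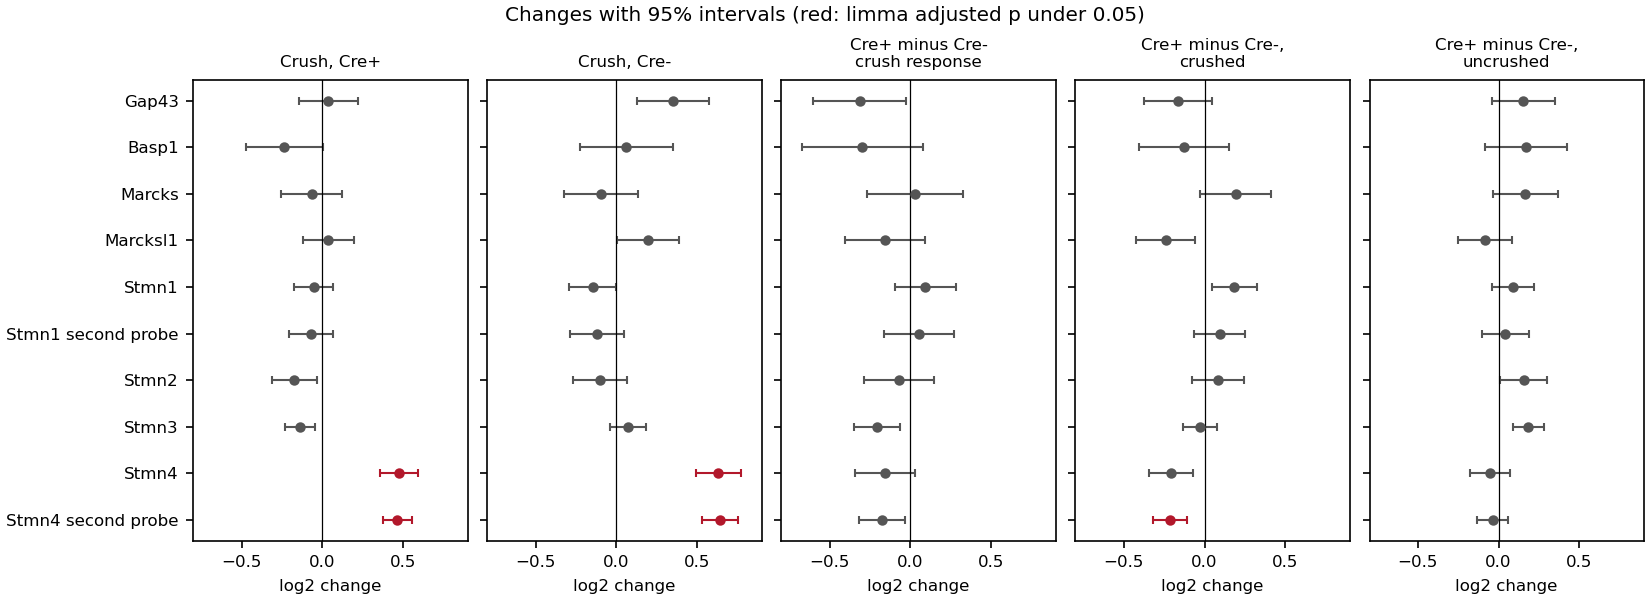
Log2 changes of the 10 probes in the 5 contrasts, with 95% intervals, first probes fitted over all genes and second probes over all probes; red marks a limma adjusted p under 0.05. Both Stmn4 probes stand above 0 in both crush panels, at 0.47 to 0.64, and the second also below 0 among crushed retinas, at -0.21.

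Ecel1, a peptidase gene of injured neurons, had the levels most like those of Stmn4, at a Pearson r of 0.964 over the 17 arrays among 14561 candidate genes. Next came Clic1, a chloride channel family gene, and Btf3, a gene of the nascent polypeptide-associated complex, both at r of 0.918. Ecel1 rose by 2.08 on the log2 scale in Cre-positive (limma adjusted p = 2.6e-07) and by 3.47 in Cre-negative retinas (limma adjusted p = 2.1e-10), and Clic1 by 0.48 (limma adjusted p = 0.0064) and 1.04 (limma adjusted p = 3.1e-06). Btf3 changed by 0.11 in each genotype without a call (limma adjusted p = 0.29 and 0.32). Since all arrays share 4 group means, slides and a reference, these r describe the arrays only.

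Among the other members, the closest genes were Rps6ka3, Panx1 and Lancl1 for Gap43 (r 0.854, 0.853 and 0.849) and Tuft1, Pin1rt1 and Mical2 for Basp1 (0.884, 0.821 and 0.811). They were Pgm1, Zfp352 and Gsg1 for Marcks (0.919, 0.908 and 0.904) and Taf5l, Hspa9 and Chaf1b for Marcksl1 (0.819, 0.814 and 0.809). Stmn1 was closest to A430033K04Rik, Dock3 and Mad2l1 (0.902, 0.888 and 0.867) and Stmn3 to Scd1, Coq9 and Gsta4 (0.843, 0.801 and 0.786). No member was among the 3 closest of another.

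Of the other genes listed for the growth cone, its actin cytoskeleton, the regulators of GAP43, MARCKS and the stathmins, and microtubule-associated proteins, 102 were tested and 5 could not be. After crush in Cre-positive retinas 1 was higher and 0 lower (0.98%), with a median log2 change of 0.01. In Cre-negative retinas 1 was higher and 3 lower (3.92%), with a median of -0.04. The background shares of 0.765% and 2.15% given above stand beside these counts. Among crushed retinas 3 were higher in Cre-positive ones and 0 lower (2.94%), against 1.14% of all genes. For the difference of the crush responses 1 was higher and 0 lower (0.98%), against 0.418% of all genes.

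Nrn1, the gene of the membrane-anchored protein neuritin, fell after crush in Cre-negative retinas. It read 0.07, -0.05 and 0.07 in Cre-negative crushed retinas, against 0.59, 0.57, 0.70 and 0.86 in Cre-negative uncrushed retinas. The groups were far apart, at a difference of -0.65 (SE 0.08, limma adjusted p = 5e-05). In Cre-positive retinas it averaged 0.70 ± 0.12 (SD, n = 5) after crush, against 0.87 ± 0.07 (SD, n = 5) without, and was not called. It was higher in Cre-positive than in Cre-negative crushed retinas by 0.67 (SE 0.07, limma adjusted p = 3.3e-05), and its crush responses differed by 0.48 (SE 0.10, limma adjusted p = 0.045). That last call was lost in 20 of 35 alternatives, among them 13 of the 17 that left out a single array (0.42 to 0.50, adjusted p 0.055 to 0.17), and at 0.51 without both arrays high in lens or corneal markers (adjusted p = 0.054). The calls of Nrn1 in the other contrasts were lost with the unassigned array counted as uncrushed, at -0.47 after Cre-negative crush (adjusted p = 0.24) and at 0.67 between genotypes (adjusted p = 0.066). Marker levels of that array are given under other observations.

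Plppr1 and Plppr3, which encode membrane proteins of the plasticity-related family, were higher in Cre-positive than in Cre-negative crushed retinas, by 0.42 (SE 0.07, limma adjusted p = 0.0033) and 0.33 (SE 0.07, limma adjusted p = 0.031). Plppr1 also fell after crush in Cre-negative retinas, to 0.81 ± 0.08 (SD, n = 3), against 1.16 ± 0.07 (SD, n = 4) in uncrushed ones, a difference of -0.35 (limma adjusted p = 0.014). A second Plppr1 probe was called in neither contrast, at 0.08 between genotypes (limma adjusted p = 0.59) and -0.06 after crush (limma adjusted p = 0.73). With slide as a fixed block the genotype differences were 0.36 for Plppr1 (limma adjusted p = 0.11) and 0.27 for Plppr3 (limma adjusted p = 0.15), and neither was called. The Plppr3 call was lost in 12 of 36 alternatives. Among them were the fits without any one of Cre-positive crushed replicates 1, 3 and 5 and Cre-negative crushed replicates 1 and 2 (0.26 to 0.36, adjusted p 0.053 to 0.22). It was also lost, at 0.30, without both arrays high in lens or corneal markers (adjusted p = 0.082). The Plppr1 crush call was lost in 6 of 36 alternatives, among them without Cre-negative crushed replicate 1 or 2 (-0.35 and -0.31, adjusted p 0.061 and 0.088). The Plppr1 estimates from processed signals, -0.97 after crush and 1.49 between genotypes, were larger and not called (adjusted p = 0.49 and 0.19).

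Tmod2, the neuronal tropomodulin that caps the slow-growing ends of actin filaments, was the 1 actin regulator of 22 called. It fell to 3.31 ± 0.16 (SD, n = 3) in Cre-negative crushed retinas, against 3.71 ± 0.14 (SD, n = 4) in Cre-negative uncrushed ones, a difference of -0.40 (SE 0.10, limma adjusted p = 0.032). That call was lost in 9 of 36 alternatives. Among them were the fits without Cre-negative crushed replicate 2 or 3 or Cre-negative uncrushed replicate 1 or 4 (-0.43 to -0.31, adjusted p 0.075 to 0.19). It was also lost from processed signals (adjusted p = 0.42), from Cy5 alone (0.16) and with median centring (0.054). The last losses came with only the groups compared (0.057) and with the unassigned array counted as uncrushed (0.15). In Cre-positive retinas it averaged 3.58 ± 0.11 (SD, n = 5) after crush and 3.52 ± 0.14 (SD, n = 5) without.

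Dclk1, a kinase that binds microtubules through doublecortin domains, was the 1 gene of 23 tested in its list called after crush. Map1b of that list had a larger estimate in Cre-positive retinas, 0.45, and -0.20 in Cre-negative retinas. Crushed retinas differed by genotype by 0.57 at Map1b, and none of its 3 values was called. The level of Dclk1 was -1.26 ± 0.16 (SD, n = 5) in Cre-positive crushed retinas, against -1.61 ± 0.14 (SD, n = 5) in Cre-positive uncrushed ones, a difference of 0.35 (SE 0.08, limma adjusted p = 0.041). In Cre-negative retinas it was -1.29 ± 0.11 (SD, n = 3) after crush, against -1.75 ± 0.04 (SD, n = 4) without, a difference of 0.46 (SE 0.09, limma adjusted p = 0.011). The 2 other Dclk1 probes were not called, at 0.13 and 0.07 in Cre-positive and -0.02 and 0.17 in Cre-negative retinas. The Cre-positive call was lost in 20 of 36 alternatives. Among them were 14 of the 17 fits that left out 1 array (0.29 to 0.38, adjusted p 0.05 to 0.11) and, at 0.24, the fit without both arrays high in lens or corneal markers. The Cre-negative call was lost in 5 of 36 alternatives, among them without Cre-negative crushed replicate 1 or 3 (0.45 and 0.41, adjusted p 0.06 and 0.076). It was also lost with median centring (0.33, adjusted p = 0.2), with the mean over probes (0.20, adjusted p = 0.15) and with the unassigned array counted as uncrushed (0.37, adjusted p = 0.21).

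The 16 tested kinases, phosphatases and calmodulin-linked genes of GAP43 and MARCKS, protein kinase C isoforms among them, held 0 calls in all 5 contrasts. So did the 16 kinases and phosphatases of stathmins, among them the JNK genes Mapk8, Mapk9 and Mapk10. In some alternatives the first list reached 1 call for Cre-negative crush or for Cre among crushed retinas. The second reached 1 for Cre-negative crush. Beside 0% to 2.15% of all genes called per contrast, 0 of 16 is not read as a result about these lists. Their log2 changes after crush lay between -0.13 and 0.19 in Cre-positive and between -0.27 and 0.17 in Cre-negative retinas for the first list. For the second they lay between -0.13 and 0.16 in Cre-positive and between -0.18 and 0.09 in Cre-negative retinas. Phosphorylation is not seen by these arrays. The ganglion cell markers, beside which the falls above stand, were lower after crush for 3 of 13 in Cre-positive and 9 of 13 in Cre-negative retinas, and their part in the listed genes was not tested.

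**Figure D5:**
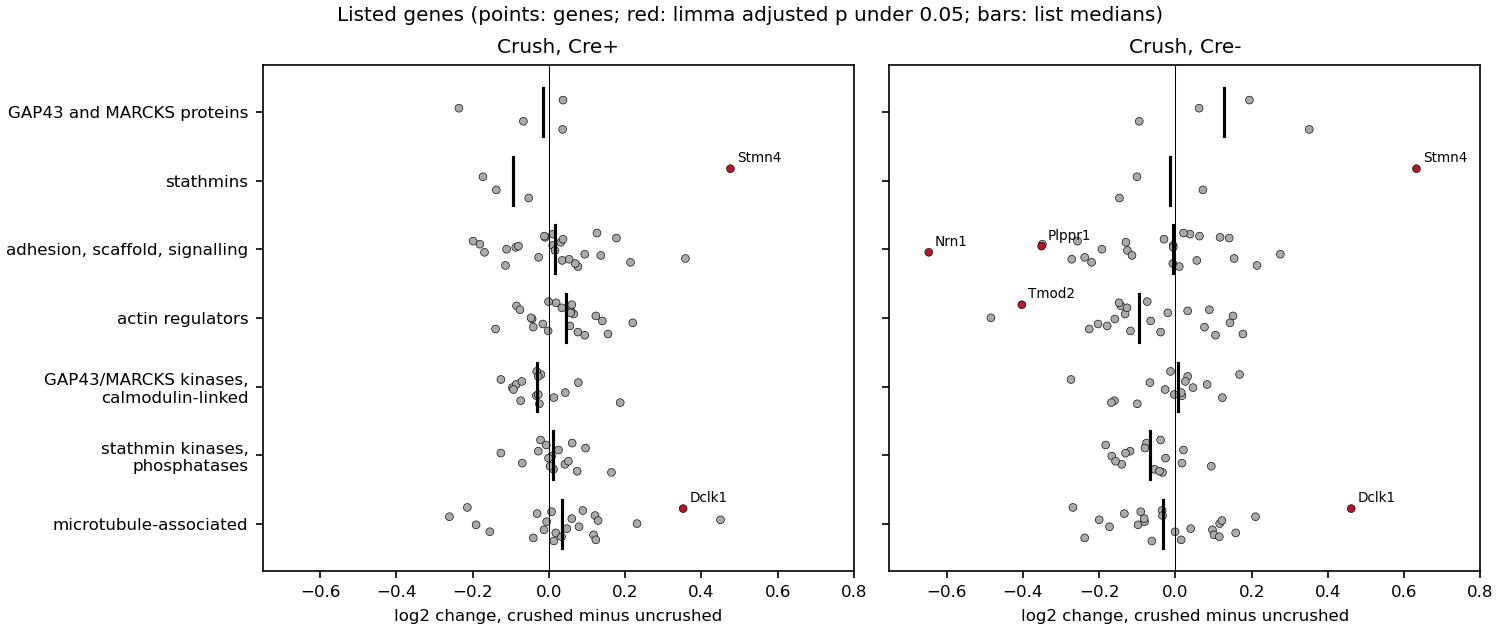
Log2 change after crush of the members and the listed genes, 1 point per gene, in Cre-positive retinas on the left and Cre-negative retinas on the right; bars are list medians and red marks a limma adjusted p under 0.05. Stmn4 lies furthest to the right in both panels, and Nrn1 furthest to the left in Cre-negative retinas.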

How the data were processed

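The deposited scanner files give, for each of 18 arrays with a pair of dyes, unnormalized median intensity per spot and for the background around it. They also give processed signals, which are intensity values from Agilent Feature Extraction 10.7.3.1 per the file headers, and a log10 ratio of them. Per probe and array, the authors' deposited table gives a log2 value. limma is named in the submitters' processing notes, and how it was set is not stated there. That scale was inferred from r of 0.999 to 1 with the ratios computed here.

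Ratios were made with limma 3.58.1 in R 4.3.3 (normexp, offset 50, then loess, with control spots at weight 0), the files being read with data.table (version 1.17.8). The median spot intensity was used because the files hold no mean. The offset shrinks changes of dim probes. Each gene was read at its brightest probe, provided that 3 or more arrays had Cy5 well above background. A mean per group was fitted to 17 arrays (13 residual degrees of freedom) with 5 contrasts and two-sided limma tests, adjusted by Benjamini-Hochberg over 25360 genes at 0.05. Precision is limited by the number of arrays. The fit was tested on simulated data.

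The members, lists and tests were chosen with earlier results of these data known. Named genes were all members, up to 4 called genes per list and contrast, the 3 genes most correlated with each member, and Map3k12 and Esr1. The genes closest to Stmn2 are not reported here. Alternatives covered background correction, normalization, dye, the authors' table, filters, probe choice, slide, fit, weights and arrays left out. Coordinates are left out, since array headers and gene table differ in build.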

Additional observations from a re-analysis of the deposited data

Results flagged for a closer look

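Each of the 10 member probes was looked at in the 3 groups of 4 or 5 arrays for a value far from the rest, 30 groups in all, of which chance alone picks about 1 in 20. There were 2 such values. Stmn2 read 2.65 in Cre-positive crushed replicate 3, while the other 4 arrays of that group read 2.33 to 2.42. The second Stmn4 probe read 4.95 in Cre-positive uncrushed replicate 4, the array with the high cornea, iris and ciliary body marker mean, while the other 4 arrays of that group read 4.78 to 4.80. The Stmn4 rise at that probe in Cre-positive retinas was 0.51 without this array and the one high in lens markers, against 0.47 with them.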

How the results depend on the processing

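Both Stmn4 crush calls and their direction held in all 36 alternatives, with a largest limma adjusted p of 0.025 in Cre-positive and 0.027 in Cre-negative retinas, in the fit on processed signals and in the fit with the unassigned array placed among the uncrushed ones. No called value of a member or of a named listed gene changed direction. The count of members called after crush in Cre-negative retinas was 2 in place of 1 without background subtraction, from Cy5 alone, with slide as a fixed block and with array weights, Gap43 being the second each time, and it ranged from 1 to 2 when single arrays were left out. From Cy5 alone 1 member, Stmn4, was called for Cre in crushed retinas. Uncalled estimates near 0 changed sign in some alternatives. The counts over all genes moved most with the unassigned array among Cre-negative uncrushed retinas, to 10 after crush in Cre-positive retinas, 73 in Cre-negative retinas, 0 for the difference and 116 for Cre among crushed retinas. Array weights gave 1198 for Cre-negative crush, 166 for the difference and 541 for Cre among crushed retinas. Other counts past 1.5 times were 357 for Cre-negative crush with median centring, 120 and 52 for Cre-positive crush with offset 0 and with only the groups compared, 69 for the difference from processed signals and 146 for Cre among crushed retinas with slide as a block. Leaving out both arrays high in lens or corneal markers gave 120 for Cre-positive crush, and leaving out Cre-positive uncrushed replicate 2 or 5 or Cre-positive crushed replicate 5 gave 111, 118 and 129. Leaving out Cre-negative crushed replicate 1 or 3 gave 327 and 342 for Cre-negative crush, and leaving out replicate 2 gave 166 for Cre among crushed retinas. For Cre among uncrushed retinas the count was 0 to 3 throughout. The cause of these moves was not tested. No paired analysis was possible because the labels carry no replicate numbers and do not tie retinas to animals.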

Other observations

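The Cre-negative array whose labels disagree on injury read 5.10 at the first and 5.28 at the second Stmn4 probe, 3.62 at Gap43, -0.70 at Basp1, 0.71 at Marcks and -2.30 at Marcksl1. It read 1.42 at the first and -0.24 at the second Stmn1 probe, 2.38 at Stmn2 and 4.25 at Stmn3. Its processed Stmn4 signal at the first probe was 77980 units in Cy5 and 2094 in Cy3, and at Gap43 10130 and 599. Its ganglion cell marker mean was 2.40, where Cre-negative retinas read 2.39 to 2.49 crushed and 3.14 to 3.25 uncrushed. Its microglia and macrophage marker mean was 0.65, where they read 0.35 to 0.43 and -0.05 to -0.02. Its lens marker mean was 1.54, and it lay at position 4 of slide 5. These values were not used to place it in a group.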
